A study of Mus musculus with 2 samples.

Results

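The genes described here are the enzymes that oxidise, reduce and conjugate foreign compounds, sterols, retinoids and reactive aldehydes in mouse cells. They comprise the cytochromes P450 (Cyp), the soluble and microsomal glutathione transferases (Gst, Mgst), the aldehyde dehydrogenases (Aldh), the aldo-keto reductases (Akr), the UDP-glucuronosyltransferases (Ugt) and the sulfotransferases (Sult). Members were chosen by gene symbol alone, from probe sets that the array annotation pairs with exactly 1 symbol, and Cyp1a1 and Cyp1b1 were left out. The choice gave 153 genes on 217 probe sets, of 18193 genes with 1 symbol on an array of 45101 probe sets. The probe set with the highest mean intensity over both arrays stands for a gene. Expression was measured on 2 arrays. The first sample is labelled as a co-culture of lymphoma cells and endothelial cells, which line blood vessels, and the second as lymphoma cells grown in medium with serum. The comparison sets the co-culture sample against the serum sample. Growth with endothelial cells, RNA of endothelial cells in the sample and a difference in medium cannot be told apart. The lymphoma line, its genotype and strain, the origin of the endothelial cells, the time in culture, the medium of the co-culture and any separation of the cells before RNA extraction were not stated in the labels.

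Cytochromes P450 are haem enzymes that insert oxygen into small molecules, with electrons passed on from reductases, cytochrome b5 or, in mitochondria, ferredoxin. Aldehyde dehydrogenases oxidise aldehydes to acids, and many of them act in the mitochondrial breakdown of amino acids. Aldo-keto reductases reduce aldehydes and ketones to alcohols. Glutathione transferases, UDP-glucuronosyltransferases and sulfotransferases attach glutathione, glucuronic acid or sulfate, which makes a compound more soluble or more easily exported. Most of these families are best known from liver, intestine and kidney, while single members act in steroid, sterol, bile acid and retinoid metabolism in other tissues.

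With 1 array per culture there was no replicate and hence no test, and the number of arrays limits the precision. A gene was called measured when its probe set exceeded an intensity of 44.3 on at least 1 array, which is the median when both arrays' values are pooled. Lower values were raised to this floor before the log2. Where 1 array lay below the floor, the fold is only a bound and is given as at least that size, and a log2 difference as that value or more, or that value or lower. Differences are log2 intensity in co-culture minus log2 intensity in serum, and a gene was called higher or lower when the difference reached 2-fold. Within 2-fold means that the difference after flooring did not reach this limit, so that for a gene below the floor on 1 array the true fold may be larger. As a description of probe error, measured probe sets of 1 gene differed in log2 difference with a pooled SD of 0.60 (5478 genes), and of 0.39 over the 15 members with at least 2 measured probe sets. This SD does not cover the spread between cultures. The ratio of 3′ to 5′ intensity, a sign of RNA length, was 2.05 in co-culture and 3.56 in serum for beta-actin, 1.88 in co-culture and 2.54 in serum for Gapdh, and 5.03 in co-culture and 13.2 in serum for the transferrin receptor gene Tfrc. Its part in the differences below was not tested. Marker genes of B-lineage and endothelial cells were mostly below the floor. The labels do not give the lineage of the lymphoma, and markers of other lymphoid lineages were not listed. Of 9 B-lineage genes 1 was measured, the transcription factor gene Ebf1 (85.3 in co-culture and 161 in serum), and of 10 endothelial genes 1 was measured, Egfl7 (532 in co-culture and 473 in serum), whereas the endothelial Pecam1, Cdh5 and Kdr were below the floor on both arrays. The summed intensity of the B-lineage list was 215 in co-culture and 291 in serum, and that of the endothelial list was 772 in co-culture and 644 in serum. Of 8 hepatocyte genes 4 were measured, none above 65.1, and Alb, the gene of serum albumin, was below the floor on both arrays. Other marker lists had few measured genes too. Fibroblasts had 5 of 10 (summed intensity 464 in co-culture and 385 in serum) and macrophages 3 of 8 (318 in co-culture and 173 in serum). Epithelium had 2 of 8 (289 in co-culture and 169 in serum). Epcam, an epithelial gene, was 2.14-fold higher, with 128 in co-culture and 59.6 in serum. Its other measured probe set, below the floor in serum, gave a log2 difference of 0.10 or more. Of 8 genes of embryonal carcinoma and the early embryo 2 were measured (summed intensity 727 in co-culture and 204 in serum), and Lin28a, an RNA-binding protein gene, was 8.98-fold higher, with 534 in co-culture and 59.4 in serum, while Pou5f1, Nanog and Sox2 were below the floor on both arrays. These sums include values below the floor, and the median over all probe sets was itself higher in co-culture (50.7) than in serum (36.9). A higher sum thus does not show more cells of a type. The part of these marker lists in the differences of the enzyme genes was not tested. In a bulk sample, fewer cells of a type and less RNA per cell cannot be told apart.

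More members of these families were lower than higher in co-culture. Of the 153 members 56 (36.6%) were measured, against 63.4% of all 18193 genes, and 97 were below the floor on both arrays. Of the 56, 17 were at least 2-fold lower and 3 at least 2-fold higher, and 36 lay within 2-fold, of which 11 were below the floor on 1 array. Among all 11542 measured genes, 10.1% were at least 2-fold lower and 4.60% at least 2-fold higher. The median log2 difference was -0.49 over the measured members, against -0.06 over all measured genes. A gene with 1 array below the floor is measured only through the other array, so the same count was made for the 36 members above the floor on both arrays. Of these, 11 were lower and 0 higher, where 10.0% of 9900 genes above the floor on both arrays were lower and 3.91% higher. All 3 higher members were below the floor in serum, and 6 of the 17 lower members were below it in co-culture. The split depends on the floor and the scaling. With the floor at percentile 25 of all values, 28 members were higher and 22 lower and the median of the members was 0.016, where 132 members and 16134 genes in all were measured, 12.7% of all these genes were higher, 10.0% lower and their median was 0.04. With the arrays scaled to the bacterial hybridisation spikes, 1 member was higher and 20 were lower of 53 measured, while 2.96% of all measured genes were higher and 14.2% lower and their median moved to -0.26.

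**Figure D1:**
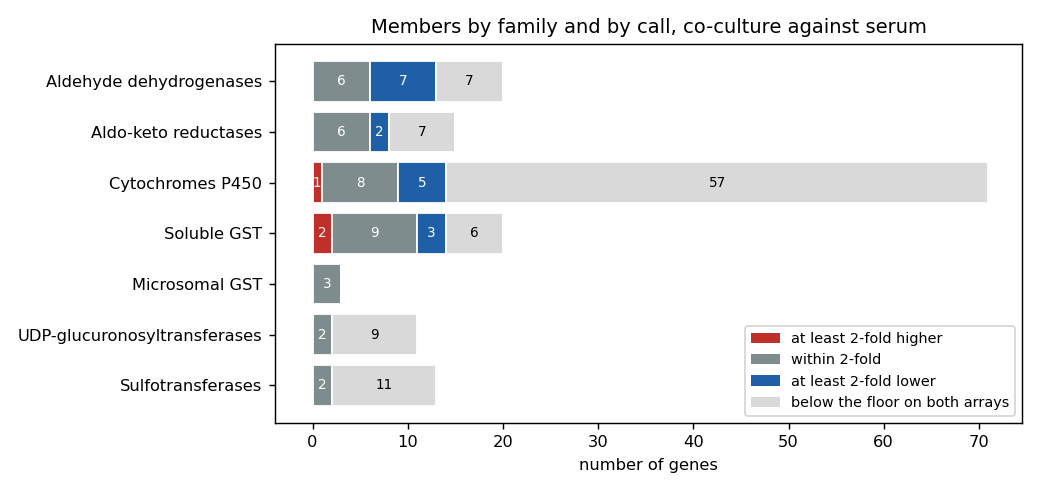
Number of genes per enzyme family, split by call (higher, within 2-fold, lower, or below the floor of 44.3 on both arrays), co-culture against serum. Aldehyde dehydrogenases hold 7 of the 17 lower members, and 57 of 71 cytochromes P450 lie below the floor.

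At this floor the aldehyde dehydrogenases had more lower members than any other of these families. Of 20 Aldh genes 13 were measured, of which 7 were at least 2-fold lower and 0 higher. Their median log2 difference was -1.08. The difference was below 0 for 12 of the 13, against 54.1% of all measured genes. All 11 measured Aldh genes with a mean intensity of 200 or more were below 0, and 6 of them were at least 2-fold lower, where 57.4% of 8089 genes of that intensity were below 0 and 9.21% at least 2-fold lower.

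Several Aldh genes of amino acid breakdown in mitochondria were at least 2-fold lower in co-culture. Aldh6a1, the methylmalonate semialdehyde dehydrogenase of valine and thymine breakdown, had an intensity of 163 in co-culture and 604 in serum, 3.71-fold lower. Aldh5a1, which oxidises succinate semialdehyde from the neurotransmitter GABA, had 340 in co-culture and 1152 in serum, 3.39-fold lower. Aldh4a1, which completes the conversion of proline to glutamate, had 182 in co-culture and 531 in serum, 2.92-fold lower. All 3 were above the floor on both arrays, and each had 1 probe set. The other members that handle amino acids and related amines lay within 2-fold, all below 0. Aldh9a1, which makes a precursor of carnitine, had 3871 in co-culture and 6257 in serum, a log2 difference of -0.69. Aldh18a1, which builds proline from glutamate, had 6603 in co-culture and 9096 in serum (-0.46), and Aldh7a1 of lysine breakdown had 799 in co-culture and 922 in serum (-0.21).

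Single Aldh genes of acetaldehyde, folate and retinal oxidation were at least 2-fold lower in co-culture as well. Aldh1b1, a mitochondrial enzyme that oxidises acetaldehyde, had 32.2 in co-culture and 221 in serum, at least 5.0-fold lower. Aldh2, the main mitochondrial acetaldehyde dehydrogenase, had 1561 in co-culture and 2977 in serum, a log2 difference of -0.93, just short of 2-fold. Its other measured probe sets gave -1.28 and -1.23, past 2-fold. Aldh1l2, which oxidises a formyl group carried by folate in mitochondria, had 771 in co-culture and 1630 in serum, 2.12-fold lower. Aldh1a2, which makes retinoic acid from retinal, had 126 in co-culture and 369 in serum, 2.92-fold lower. Aldh16a1 had 158 in co-culture and 947 in serum, 6.0-fold lower, and its second probe set gave a log2 difference of -1.34. Aldh3a2, which oxidises fatty aldehydes, had 392 in co-culture and 772 in serum, a log2 difference of -0.98. Aldh3b1 was the exception in sign, with 129 in co-culture and 114 in serum (0.18). Aldh1a1 and Aldh1a3, which also make retinoic acid, and Aldh1a7, Aldh1l1, Aldh3a1, Aldh3b2 and Aldh8a1 were below the floor on both arrays.

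**Figure D2:**
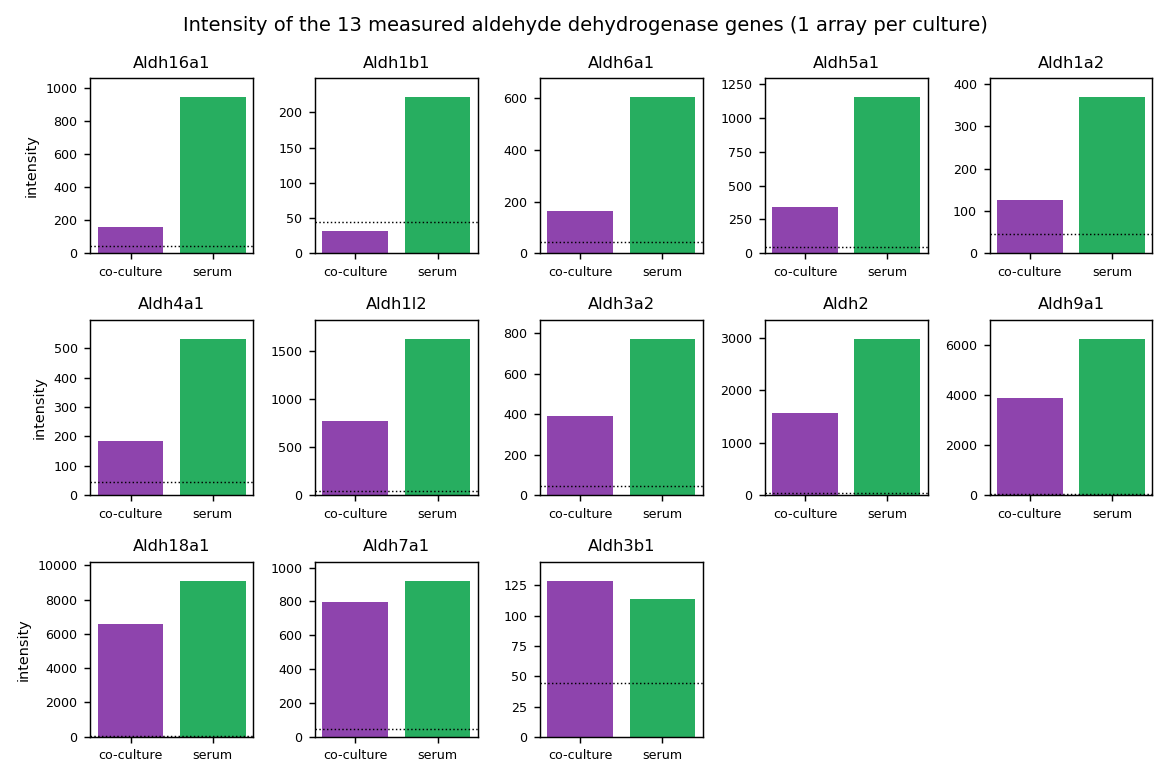
Intensity (linear axis from 0, a scale per panel) of each measured aldehyde dehydrogenase gene in co-culture (left bar) and serum (right bar), 1 array each, with the floor of 44.3 as a dotted line. The co-culture bar is the lower one in 12 of the 13 panels, and Aldh3b1 is the other.

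Outside the aldehyde dehydrogenases, 10 members were at least 2-fold lower in co-culture, among them Gstk1 and Cyp27a1, which also act in mitochondria. The others are given below by family. Of 14 members listed as mitochondrial, Aldh genes among them, 9 were measured and 7 were lower, where 10.1% of all measured genes were lower. The list was chosen with earlier results of these data known, so this share does not show a mitochondrial pattern. Its highest log2 difference was -0.46, and members such as Aldh7a1 (-0.21) and Mgst1 (-0.22) were not in it. Gstk1, the kappa-class glutathione transferase of mitochondria and peroxisomes, had 65.5 in co-culture and 465 in serum, 7.10-fold lower, the most negative log2 difference of any measured member at this floor. Cyp27a1, which hydroxylates the side chain of cholesterol on the way to bile acids, had 91.2 in co-culture and 465 in serum, 5.10-fold lower. With the floor raised to percentile 75 of all values, an intensity of 389, the log2 differences of Gstk1 and Cyp27a1 were both -0.26, that of Aldh4a1 -0.45 and that of Aldh6a1 -0.64, because their co-culture values lie below that floor. Aldh1a2 (-0.88) and Aldh1b1 (-0.15) came within 2-fold with the floor at 200. The ferredoxin gene Fdx1, which hands electrons to mitochondrial P450 enzymes and is no member, had 213 in co-culture and 444 in serum, 2.09-fold lower.

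Few cytochromes P450 were measured, and the families known for drug oxidation in liver were almost all below the floor. Of 71 Cyp genes 14 were measured (19.7%, against 63.4% of all genes). Of these 14, 5 were at least 2-fold lower and 1 higher, and the median log2 difference was -0.30. Among all measured genes 10.1% were lower and 4.60% higher. All 5 Cyp3 genes, 30 of 35 Cyp2 genes and 11 of 13 Cyp4 genes were below the floor on both arrays, as was Cyp1a2. The receptors that induce many of these genes in liver, Nr1i2 (PXR) and Nr1i3 (CAR), were below the floor too. Of the 5 measured Cyp2 genes only Cyp2u1, a fatty acid hydroxylase, was above the floor on both arrays, with 164 in co-culture and 201 in serum (-0.29), and its other probe set gave 0.42. Cyp2c23 had 23.2 in co-culture and 206 in serum, at least 4.64-fold lower. Its probe set is one whose identifier marks sequence shared with other genes. Cyp2j6 had 34.8 in co-culture and 110 in serum, at least 2.49-fold lower. Cyp2b10, a classic CAR target in liver, had 5.63 in co-culture and 93.3 in serum, at least 2.11-fold lower. Another probe set of Cyp2b10 gave -0.21 or lower. With the mean over all probe sets of a gene, Cyp2b10 (-0.43) and Cyp2j6 (-0.66) were within 2-fold, and with the floor at 200 so were Cyp2c23 (-0.04) and Cyp39a1 (-0.68), an oxysterol hydroxylase gene. Cyp2c55 had 50.9 in co-culture and 22.4 in serum, a log2 difference of 0.20 or more. In the Cyp4 family, whose enzymes hydroxylate fatty acids and leukotrienes, Cyp4f13, below the floor in co-culture, had a log2 difference of -0.33 or lower, and Cyp4f16 had one of -0.31.

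Of the P450 genes of sterols, steroids and retinoids, Cyp27a1 and Cyp39a1 were at least 2-fold lower in co-culture. Only Cyp26b1, given below, was at least 2-fold higher. Of 10 P450 genes of sterol, bile acid and vitamin D metabolism 4 were measured, and 2 were lower and 0 higher. Among all measured genes 10.1% were lower and 4.60% higher, and with 4 genes these shares can be compared only roughly. Besides Cyp27a1, the lower gene was Cyp39a1, with 68.3 in co-culture and 320 in serum, 4.68-fold lower. Cyp51, the demethylase of cholesterol synthesis, had 7623 in co-culture and 7142 in serum (0.09), and its other probe sets gave 0.49 and 0.63. Cyp7a1, the rate-limiting enzyme of bile acid synthesis, had 55.7 in co-culture and 22.9 in serum (0.33 or more). Of 5 steroid hormone genes only Cyp21a1, the steroid 21-hydroxylase gene, was measured, with 373 in co-culture and 351 in serum (0.09). Its other probe set was below the floor on both arrays, with 15.9 in co-culture and 11.8 in serum. Cyp20a1, a P450 with no settled substrate, had 5284 in co-culture and 3381 in serum (0.64), and its other probe sets gave 0.37 and 0.73.

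Of 5 members that make or clear retinoic acid only 2 were measured, Cyp26b1, which was higher in co-culture, and Aldh1a2, which was lower. Cyp26b1, which breaks retinoic acid down, had 198 in co-culture and 39.2 in serum, at least 4.47-fold higher, the highest log2 difference of any measured member at this floor. Its relative Cyp26a1 was below the floor on both arrays. Aldh1a2, given above, was 2.92-fold lower. Of 9 other genes of retinoid handling 6 were measured, 1 lower and 0 higher, where 10.1% of all measured genes were lower. The lower one was Dhrs3, a retinal reductase, with 39.4 in co-culture and 166 in serum, at least 3.74-fold lower. Crabp2, which carries retinoic acid to the nucleus, had 761 in co-culture and 1466 in serum (-0.95), while the retinol dehydrogenase Rdh10 (0.09) and the retinol transporter Stra6 (-0.16) lay within 2-fold. The retinoic acid receptor gene Rarg had 163 in co-culture and 64.2 in serum, 2.53-fold higher. Its partner receptors were lower, Rxra with 804 in co-culture and 1816 in serum (2.26-fold) and Rxrb with 798 in co-culture and 2510 in serum (3.15-fold). Each of these 3 receptor genes had 1 measured probe set. The retinoic acid receptor genes Rara and Rarb were below the floor on both arrays.

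**Figure D3:**
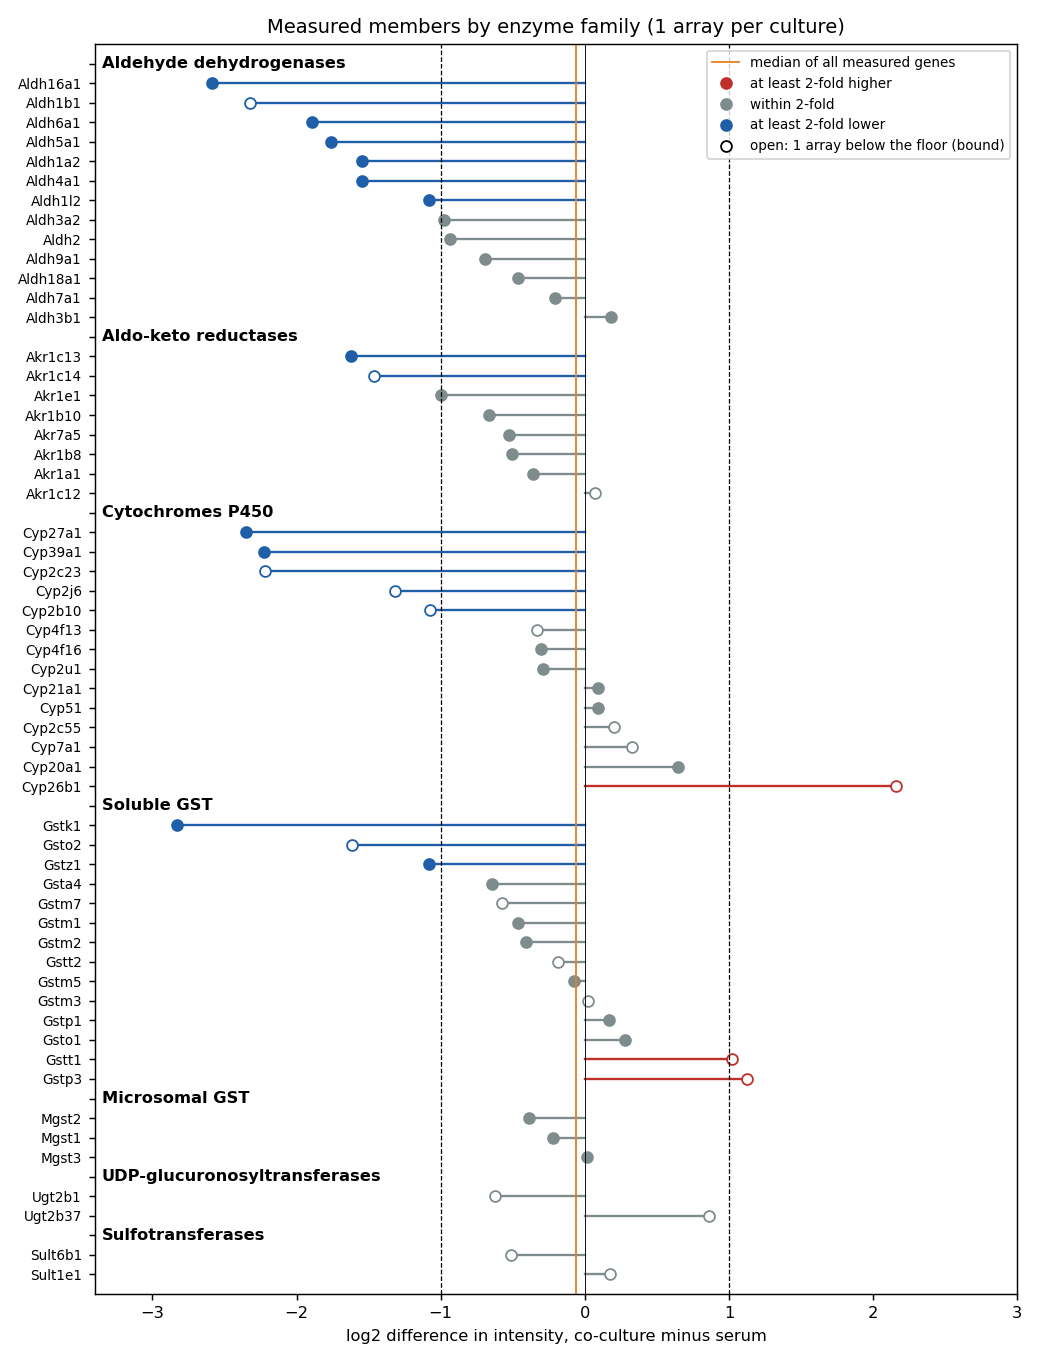
Log2 difference in intensity, co-culture minus serum, of each of the 56 measured members by family, 1 array per culture. Open circles mark genes below the floor of 44.3 on 1 array, dashed lines mark 2-fold, and the orange line is the median of all measured genes (-0.06); Gstk1 lies lowest at -2.83 and Cyp26b1 highest at 2.16.

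The soluble glutathione transferases differed in both directions. Of 20 Gst genes 14 were measured, of which 3 were lower and 2 higher, where 10.1% of all measured genes were lower and 4.60% higher. The median over the 14 was -0.30. Besides Gstk1, the lower genes were Gsto2, an omega-class enzyme that reduces oxidised vitamin C, with 38.9 in co-culture and 136 in serum (at least 3.06-fold), and Gstz1, the isomerase of tyrosine breakdown, with 370 in co-culture and 781 in serum (2.11-fold). The higher genes were Gstp3 of the pi class, with 96.6 in co-culture and 9.95 in serum (at least 2.18-fold), and Gstt1 of the theta class, with 89.8 in co-culture and 14.5 in serum (at least 2.03-fold). Both were below the floor in serum and came within 2-fold when the arrays were scaled to the spikes, at 0.93 for Gstp3 and 0.83 for Gstt1, and Gstt1 did so with quantile normalization too (0.91). Close relatives of these genes lay within 2-fold. Gsto1 had 4606 in co-culture and 3792 in serum (0.28), Gstp1, the pi-class enzyme found in many dividing cells, had 9974 in co-culture and 8857 in serum (0.17), and Gstt2 had 44.2 in co-culture and 50.4 in serum (-0.19 or lower).

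In the alpha and mu classes, which carry much of the cell's conjugation of electrophiles, each measured gene lay within 2-fold. Of 3 alpha genes 1 was measured by a probe set of its own. Gsta4, which conjugates the lipid aldehyde hydroxynonenal, had 3965 in co-culture and 6196 in serum (-0.64). A probe set listed with Gsta1, Gsta2 and a gene model, which entered no count, had 40.4 in co-culture and 94.1 in serum, at least 2.12-fold lower. In the mu class Gstm1 had 4105 in co-culture and 5666 in serum (-0.47), with -0.70 and -0.48 by other probe sets, Gstm2 had 802 in co-culture and 1063 in serum (-0.41), and Gstm5 had 4022 in co-culture and 4245 in serum (-0.08). Each of the last 2 mu-class genes measured was above the floor on 1 array only, Gstm3 with 44.9 in co-culture and 12.0 in serum (0.02 or more) and Gstm7 with 43.1 in co-culture and 65.8 in serum (-0.57 or lower). Mu-class genes are close copies of each other, so a probe set can bind more than 1 of them and their values are uncertain to that extent. The microsomal enzymes, which belong to a separate protein family, lay within 2-fold: Mgst1 had 3228 in co-culture and 3759 in serum (-0.22), Mgst2 had 228 in co-culture and 298 in serum (-0.38), and Mgst3 had 123 in co-culture and 122 in serum (0.02).

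Of 15 Akr genes 8 were measured, of which 2 were at least 2-fold lower and 0 higher, and 7 of the 8 differences were below 0. Among all measured genes 10.1% were at least 2-fold lower, 4.60% higher and 54.1% below 0. With 8 genes these shares can be compared only roughly. The 2 lower Akr genes were steroid-reducing members of the Akr1c subfamily. Akr1c13 had 59.8 in co-culture and 184 in serum, 3.08-fold lower, and Akr1c14 had 41.0 in co-culture and 122 in serum, at least 2.75-fold lower. A probe set listed with both Akr1c12 and Akr1c13 had 43.2 in co-culture and 156 in serum, and since these genes are near-identical their signals cannot be told apart. Akr1c12 by its own probe set had 46.6 in co-culture and 8.50 in serum (0.07 or more). Akr1e1, a reductase of anhydrofructose, had 648 in co-culture and 1291 in serum, just within 2-fold (-0.99), but its other probe set gave 0.41. The same held for Akr1b10, at -0.67 by the probe set that stands for it and at 0.37 or more and 0.41 or more by 2 others, both below the floor in serum. Akr1a1, which reduces aldehydes with NADPH, had 9538 in co-culture and 12250 in serum (-0.36), and its 3 other probe sets lay between -0.39 and -0.11. Akr7a5 and Akr1b8 had -0.52 and -0.51.

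The glucuronosyl and sulfotransferases were hardly measured by probe sets of a single gene. The measured share was 18.2% of Ugt and 15.4% of Sult genes, against 63.4% of all genes. Of 11 Ugt genes 2 were above the floor on 1 array, Ugt2b37 with 80.6 in co-culture and 8.02 in serum (0.86 or more) and Ugt2b1 with 38.4 in co-culture and 68.4 in serum (-0.63 or lower). Of 13 Sult genes 2 were, the estrogen sulfotransferase gene Sult1e1 with 49.9 in co-culture and 2.08 in serum (0.17 or more) and Sult6b1 with 41.8 in co-culture and 63.3 in serum (-0.51 or lower). No member of either family was above the floor on both arrays. Those just past the 2-fold limit were Gstt1 (1.02 or more), Cyp2b10 (-1.07 or lower), Gstz1 (-1.08) and Aldh1l2 (-1.08), and those just inside it were Akr1e1 (-0.99), Aldh3a2 (-0.98) and Aldh2 (-0.93). For Ugt2b37 only the bound lay inside the limit.

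**Figure D4:**
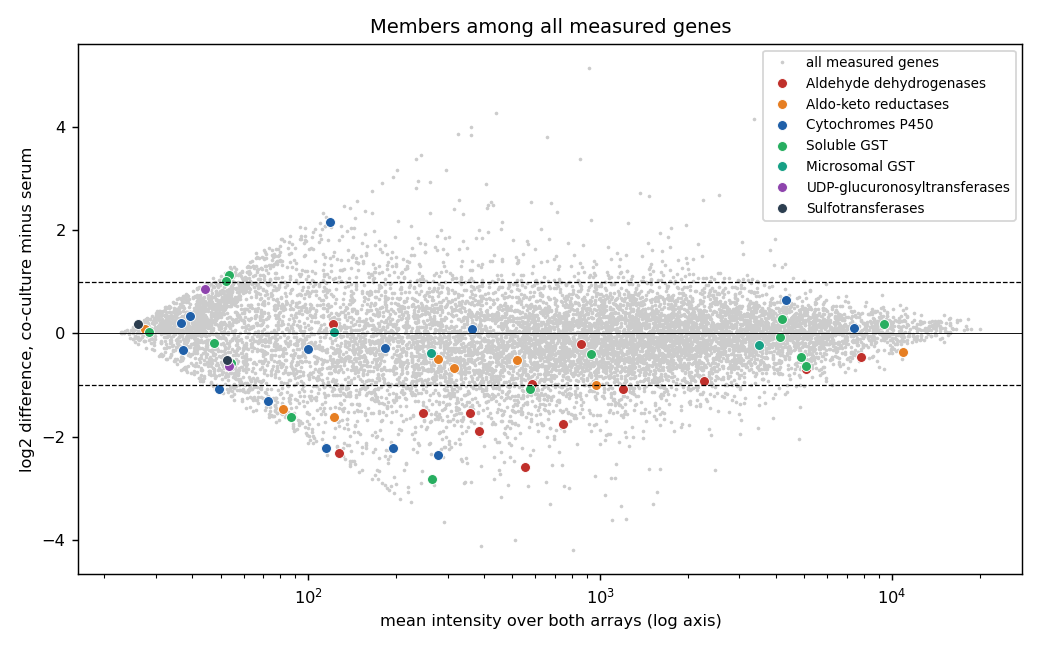
Log2 difference, co-culture minus serum, against mean intensity over both arrays (log axis) for all 11542 measured genes (grey) and the 56 measured members (coloured by family), with dashed lines at 2-fold. The aldehyde dehydrogenases lie below 0 with 1 exception, and the soluble glutathione transferases at the right end of the plot lie within 2-fold.

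Agreement between probe sets could be checked for few of the called members. Of the 20 called members 18 had 1 measured probe set. The other 2 were Aldh16a1, where the second probe set was past 2-fold the same way, and Cyp2b10, where its bound did not reach 2-fold. Over the 15 members with at least 2 measured probe sets, all other probe sets lay on the same side of 0 for 12, and Akr1b10, Akr1e1 and Cyp2u1 were the exceptions. The 4 Aldh genes within 2-fold that had other measured probe sets, Aldh2, Aldh18a1, Aldh9a1 and Aldh7a1, were below 0 by each of them.

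**Figure D5:**
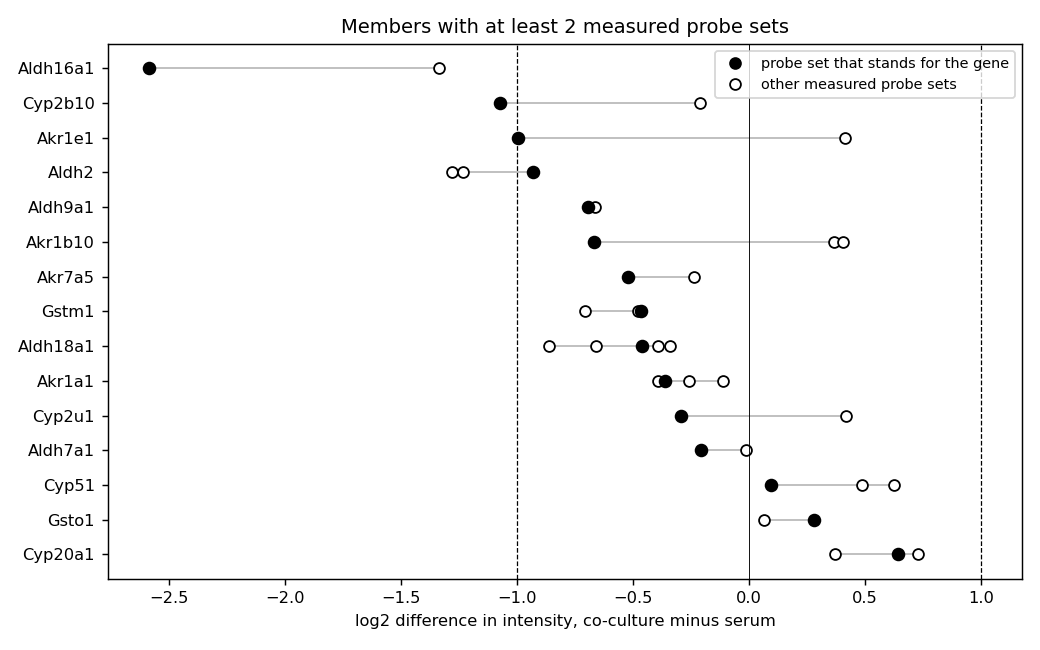
Log2 difference, co-culture minus serum, of every measured probe set of the 15 members with at least 2 (filled: the probe set that stands for the gene; open: the others), with dashed lines at 2-fold. Probe sets of Akr1b10, Akr1e1 and Cyp2u1 fall on both sides of 0.

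By the probe set that stands for a gene, most genes that supply these enzymes lay within 2-fold, but other probe sets of 3 of them were past 2-fold higher. Of 11 genes of glutathione, glucuronic acid and sulfate supply, all measured, 1 was higher and 0 lower. Among all measured genes 4.60% were higher and 10.1% lower. The median of the 11 supply genes was 0.26 on the log2 scale. The higher one of them was Gclc, the catalytic subunit of glutamate-cysteine ligase, with 1900 in co-culture and 893 in serum, 2.13-fold, and its other probe set gave 1.19. Gclm, the regulatory subunit of the same enzyme, had 4110 in co-culture and 2345 in serum (0.81), and 1.17 by its other probe set. Glutathione reductase Gsr had 7833 in co-culture and 5403 in serum (0.54), and its other probe set, below the floor in serum, gave 2.23 or more. The cystine transporter gene Slc7a11 had 599 in co-culture and 440 in serum (0.45), and its other probe set gave 2.68, with 339 in co-culture and 52.9 in serum. Of 8 electron donor genes listed, 5 had a value, and Por, Fdx2 and Fdxr had none. Of these 5, 1 was higher and 1 lower. They were Cyb5a, the cytochrome b5 of microsomes, with 1881 in co-culture and 929 in serum (2.02-fold), and Fdx1, given above. Of 20 other enzymes of drug metabolism 13 were measured, 2 higher and 3 lower. The carbonyl reductase Cbr3 was 3.49-fold higher, with 783 in co-culture and 224 in serum, and the quinone reductase Nqo1 was 3.63-fold higher, with 2679 in co-culture and 739 in serum. The flavin monooxygenase Fmo1 was 4.32-fold lower, with 72.3 in co-culture and 312 in serum. The thiopurine methyltransferase Tpmt had 230 in co-culture and 742 in serum, 3.23-fold lower, although its other probe set, below the floor in co-culture, gave -0.30 or lower. The quinone reductase Nqo2 had 150 in co-culture and 474 in serum, 3.16-fold lower, with -1.42 and -0.65 by other probe sets. Of the sensors of foreign compounds and oxidants, Ahr (-0.32), Arnt (0.11), Nfe2l2 (0.07) and Keap1 (-0.16) lay within 2-fold.

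Promoter sequence of the members was read from RefSeq windows of GRCm38.p6 that run from 250 bases before to 50 bases after a gene's start, with 141 windows for 120 of the 153 members. Measured members had a median of 8.5 CpG dinucleotides per window and members below the floor had 2, against 21 in all measured genes and 6 in all genes below the floor on both arrays. The antioxidant response element core TGACNNNGC, searched on both strands, was in 9.93% of member windows and in 12.4% of all 32851 windows. The dioxin response element TNGCGTG, searched in the same way, was in 4.26% of member windows and 5.07% of all windows. It occurred in the windows of 3 of the 10 measured Aldh genes with a window, Aldh18a1, Aldh3a2 and Aldh9a1, all within 2-fold, and in none of the 14 lower members with a window. The antioxidant core occurred in 2 lower members, Aldh1a2 and Cyp2j6. The retinoic acid DR5 element, the hexamer AGGTCA and a direct repeat of it 5 bases on, was in 0 member windows and in 3 of all windows. The 120 bases before the start of 6 members are shown for the Aldh genes with a match and, beside them, for Gstm5 and Mgst1, which hold an antioxidant core and lay within 2-fold. They run 5′ to 3′ on the gene's strand, the capitals mark the matches, and no matches overlap.
Aldh18a1, chr19:40588464-40588583, minus strand: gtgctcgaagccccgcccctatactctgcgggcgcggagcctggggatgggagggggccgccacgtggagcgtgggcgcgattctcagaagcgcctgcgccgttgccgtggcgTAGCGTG
Aldh3a2, chr11:61267187-61267306, minus strand: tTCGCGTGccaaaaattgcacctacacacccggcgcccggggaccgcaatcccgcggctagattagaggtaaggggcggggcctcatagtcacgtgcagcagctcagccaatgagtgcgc
Aldh9a1, chr1:167349871-167349990, plus strand: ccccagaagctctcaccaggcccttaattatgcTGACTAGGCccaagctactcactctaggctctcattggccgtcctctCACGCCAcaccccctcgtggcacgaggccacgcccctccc
Aldh1a2, chr9:71215669-71215788, plus strand: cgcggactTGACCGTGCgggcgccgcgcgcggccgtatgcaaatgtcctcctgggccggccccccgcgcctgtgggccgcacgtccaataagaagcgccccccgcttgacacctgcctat
Gstm5, chr3:107895734-107895853, plus strand: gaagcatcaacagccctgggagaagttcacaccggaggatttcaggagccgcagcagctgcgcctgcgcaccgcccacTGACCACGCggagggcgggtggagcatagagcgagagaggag
Mgst1, chr6:138140407-138140526, plus strand: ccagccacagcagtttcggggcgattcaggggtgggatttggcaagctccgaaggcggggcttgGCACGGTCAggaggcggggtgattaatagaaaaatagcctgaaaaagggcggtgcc
A match is a stretch of letters and not a shown binding site. Of the Aldh genes printed, Aldh1a2 with the antioxidant core was 2.92-fold lower, and Aldh9a1 with both motifs had a log2 difference of -0.69.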

How the data were processed

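Total RNA of 2 mouse samples was labelled with biotin per the labels' protocols, and read on 1-colour arrays. The deposited table holds linear intensity values per probe set. The sources used here do not give the array software, background correction or normalization. Without the outer 2% at either end, the mean was 500.0 on each array, as global scaling would leave, while the medians were 50.7 in co-culture and 36.9 in serum. Gene names came from the platform annotation, updated to RefSeq by gene number, and all 153 members matched. The 12 probe sets listed with several symbols of these families were left out.

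From the intensities, log2 differences were computed with Python 3.11.15, numpy 2.4.6 and pandas 2.3.3, after setting values below 44.3 to this floor, and control probe sets were left out. The highest of 27 probe sets for bacterial genes not in the spikes was 21.7. With 1 array per group no test was run. The number of arrays limits the precision. The steps were tested on simulated data, with known changes put only into genes far above the floor. That test did not cover changed genes near or below the floor.

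The members, gene lists and alternatives were chosen with earlier results of these data known. Members named are those past 2-fold, the 2 with the highest mean intensity in each family and those nearest to the limit. Further members, and genes of the lists, were named after their values were seen. Listed genes with no value under a single symbol do not enter the list counts.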

Additional observations from a re-analysis of the deposited data

Results flagged for a closer look

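Probe sets listed with several symbols of these families entered no comparison. Of 12 such probe sets 6 were above the floor on at least 1 array. The 3 listed with 8 Ugt1a symbols, genes that share their last exons at 1 locus, were above the floor and above the serum value in co-culture. Their intensities were 415 in co-culture and 244 in serum, 136 in co-culture and 46.4 in serum, and 111 in co-culture and 69.9 in serum, with log2 differences of 0.77, 1.55 and 0.67. Which Ugt1a gene gives this signal cannot be told from them. A probe set listed with Gsta1, Gsta2 and a gene model had 40.4 in co-culture and 94.1 in serum, at least 2.12-fold lower with a log2 difference of -1.09 or lower.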

How the results depend on the processing

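With 1 array per culture, no value here has a check against the spread between cultures, and low intensities limit the P450, Ugt and Sult genes most. Against 3 higher and 17 lower members, a median of -0.49, 7 lower Aldh genes and an Aldh median of -1.08, 10 alternatives were run. With the floor at percentile 25, which brings 132 members in, 28 members were higher, the median over members was 0.016 and the Aldh median was -0.98. With the floor at percentile 75, which leaves 25 members, 0 were higher, 4 lower, 3 Aldh genes lower and the Aldh median was -0.81. With the floor at 200, 0 were higher, 8 lower and the Aldh median was -0.95. Adding a pseudocount of 16 without any floor gave 7 higher members. Quantile normalization gave an Aldh median of -0.96. Scaling to the spikes gave 1 higher member, medians of -0.65 over members and -1.27 over Aldh genes, and moved the split over all genes to 332 higher and 1589 lower, from 531 and 1162. The mean over probe sets gave a median over members of -0.36. Leaving out probe sets whose identifiers end in _s_at, _x_at or _a_at gave an Aldh median of -1.31. The cause of these moves was not tested, apart from the number of members that a floor lets in. Of 177 values of the 20 called members under these alternatives 0 changed sign. This outcome was largely fixed in advance and is no check, since a floor or a pseudocount cannot reverse a difference. The choice of probe set could change little either, as 18 of the 20 had 1 measured probe set. Of the 177 values, 155 moved by less than the probe set SD and the others by more. Differences of 12 of the 20 passed 2-fold in fewer alternatives than gave them a value, among them Gstk1, Cyp27a1, Aldh4a1 and Aldh6a1 under the floor at percentile 75.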
